A study of Drosophila melanogaster with 2 samples.

Results

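Of the 2658 peaks that a pooled Taf1 peak list placed on the chromosome arms of Drosophila melanogaster, 472 (17.8%) had their summit inside an intron of a protein-coding gene and more than 2000 bp from the nearest protein-coding transcription start site (TSS) on either strand. These far intronic peaks were chosen by position alone: the summit lay in no annotated exon of any gene, and its signal played no part. The study mapped Taf1 by chromatin immunoprecipitation with sequencing (ChIP-seq) in 1 group of 2 biological replicates of whole embryos aged 0 to 24 h, with no treated, mutant or staged arm. All embryos came from the fly strain named Taf1-GFP, which carries an insertion that makes a Taf1-eGFP fusion protein, and the chromatin, sonicated to 200 to 800 bp, was precipitated with an antibody against GFP. Each value is therefore an average over every tissue and every stage in a 24 h collection, sex was not collected, and a possible control experiment listed in the labels was not used here. Sequencing depth is unknown, since no read counts accompany the peaks.

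Taf1 is the largest TFIID subunit. TFIID recognises core promoters and helps to place RNA polymerase II at the start site. The complex is best known at the start of genes, so a peak deep inside an intron marks a place where Taf1, or chromatin crosslinked to it, was recovered away from any annotated start of a protein-coding gene. Drosophila introns are known to hold enhancers, unannotated or alternative promoters, and start sites of noncoding RNAs, and an enhancer that touches its promoter can be recovered together with it. The peak lists do not separate these cases.

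Beside the 472 far intronic peaks, the list held 1405 peaks within 500 bp of a protein-coding TSS (called promoter peaks here), 393 intronic peaks between 500 and 2000 bp from one (near intronic), 299 intergenic peaks and 89 exonic peaks. The 3 members closest to the 2000 bp limit lay in Dif at 2004 bp, in 14-3-3epsilon at 2010 bp and in hiw at 2023 bp, with pooled signals of 97.5, 65.2 and 100.3. The 3 intronic peaks just outside it lay in fru at 2000 bp, in RhoGAP18B at 1999 bp and in CHES-1-like at 1995 bp, with pooled signals of 78.7, 111.9 and 132.8.

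The sequences at the 6 of the strongest members show what these sites look like. They are the 6 strongest outside the right arm of chromosome 2, whose sequence is not shown. Each runs from 100 bp before to 100 bp after the summit, on the plus strand of the release 6 assembly (dm6), taken from the RefSeq genome. Capitals mark every copy of the 5-base word CAGTG or its reverse complement CACTG, a word described further on. Each of the 6 windows lies in an intron and outside every annotated exon.
Tlk, chrX:3742114-3742314: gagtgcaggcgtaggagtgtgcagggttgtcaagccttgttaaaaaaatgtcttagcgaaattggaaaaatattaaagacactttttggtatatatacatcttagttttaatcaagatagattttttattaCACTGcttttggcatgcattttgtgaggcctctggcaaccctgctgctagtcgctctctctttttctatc
CG32486, chr3L:3060684-3060884: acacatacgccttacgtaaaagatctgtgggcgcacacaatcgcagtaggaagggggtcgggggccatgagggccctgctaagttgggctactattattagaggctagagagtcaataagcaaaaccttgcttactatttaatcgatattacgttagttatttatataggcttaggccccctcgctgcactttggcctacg
CHES-1-like, chrX:7706921-7707121: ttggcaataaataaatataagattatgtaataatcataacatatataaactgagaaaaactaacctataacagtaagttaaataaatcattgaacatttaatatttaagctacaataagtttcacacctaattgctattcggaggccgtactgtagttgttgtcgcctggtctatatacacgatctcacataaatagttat
osa, chr3R:17700452-17700652: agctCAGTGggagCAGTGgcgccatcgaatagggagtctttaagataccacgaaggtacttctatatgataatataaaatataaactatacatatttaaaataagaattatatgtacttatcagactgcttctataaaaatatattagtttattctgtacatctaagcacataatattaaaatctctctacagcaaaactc
Dys, chr3R:19499148-19499348: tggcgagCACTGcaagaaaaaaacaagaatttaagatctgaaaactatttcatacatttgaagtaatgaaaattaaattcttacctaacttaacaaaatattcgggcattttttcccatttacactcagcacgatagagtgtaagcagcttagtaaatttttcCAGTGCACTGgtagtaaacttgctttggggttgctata
Nak, chr2L:18966283-18966483: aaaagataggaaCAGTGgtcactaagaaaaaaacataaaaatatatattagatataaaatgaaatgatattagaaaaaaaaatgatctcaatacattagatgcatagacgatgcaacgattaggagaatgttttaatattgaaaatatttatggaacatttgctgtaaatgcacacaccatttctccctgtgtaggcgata
The 6 windows had GC contents of 37.8%, 47.3%, 27.9%, 29.9%, 33.3% and 27.9%, in the order shown, and held 1, 0, 0, 2, 3 and 1 copies of the word. In the Dys window, a CAGTG and a CACTG stand back to back to the right of the summit, and a further CACTG stands near the left end of the window. In the osa window, both copies stand within the leftmost stretch, on the same strand. The osa, Nak and CHES-1-like windows hold long runs of A and T.

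The 6 sites were strong in both replicates. The scale of the signal, the value the peak caller gave to each peak, is not given in the sources used here, so signals rank peaks and carry no unit. At Tlk, which encodes Tousled-like kinase, a kinase that acts in chromatin assembly, the signal was 393 in replicate 1 and 417 in replicate 2, and 795 in the pooled list. At CG32486 it was 259 in replicate 1, 378 in replicate 2 and 636 pooled. At CHES-1-like, a forkhead transcription factor gene, it was 254 in replicate 1, 242 in replicate 2 and 489 pooled. Tlk and CHES-1-like thus had nearly equal signals in the replicates, and CG32486 was higher in replicate 2.

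At osa, which encodes a subunit of the SWI/SNF (Brahma) chromatin remodelling complex, the signal was 179 in replicate 1, 209 in replicate 2 and 382 pooled. This member lay 13481 bp from the nearest protein-coding TSS, the largest distance among the 20 strongest members, and 189 bp from the start of the noncoding RNA gene lncRNA:CR46036. At Dys, the dystrophin gene, it was 159 in replicate 1, 202 in replicate 2 and 356 pooled. At Nak, which encodes Numb-associated kinase, it was 132 in replicate 1, 184 in replicate 2 and 317 pooled.

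The 14 other members among the 20 strongest ran from 425 pooled at CG12769 on arm 2R down to 248 at rdx, a substrate adaptor of a Cullin-3 ubiquitin ligase. One lay at 364 in nested genes, CG46321, CG12912 and Hr3, of which Hr3 encodes a nuclear receptor of the ecdysone cascade. Its replicate signals were 189 and 182. Kinase genes were Raf (299), which acts in the receptor tyrosine kinase pathway, Btk (289), a Tec-family kinase, and mnb (270), a DYRK kinase. Transcription and chromatin genes were apt (279), a transcription factor of tracheal and border cells, Gug (260), the Atrophin corepressor, and simj (257), a NuRD subunit. RNA-binding genes were Tis11 (279), which acts in the decay of AU-rich mRNAs, and mbl (255), the splicing factor muscleblind. The remaining ones lay in CG34417 (314), in CG32264 (277) and at 252 in aos and the overlapping CG33158, where aos encodes the secreted EGF receptor inhibitor argos.

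The authors' lists also include a conservative pooled list, which is stricter than the one used here, and a thresholded list for each replicate. All 20 of the strongest members overlapped the conservative list and the thresholded list of each replicate, and 14 of the 20 had the higher signal in replicate 2. Their log2 ratio of replicate 2 to replicate 1 ran from -0.20 at Tis11 to 0.86 at CG32264. The 20 lay between 2058 and 13481 bp from a TSS, so none was among the members farthest from one.

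Across all members the pooled signal had a median of 80.0 and a range of 2.14 to 795, with quartiles of 63.4 and 113.2. The median was 93.5 over near intronic peaks, 83.8 over intergenic peaks, 95.0 over promoter peaks and 90.7 over all peaks. The difference was larger at the strong end: the 90th percentile was 170.0 over the members and 256 over the promoter peaks. In the members, 35 peaks had a signal over 200.

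Stricter lists held fewer of them. The conservative list overlapped 342 of the 472 members (72.5%, exact Clopper-Pearson 95% interval 68.2 to 76.4), beside 77.7% of all 2658 peaks. The replicate 1 thresholded list overlapped 181 members (38.3%), beside 48.3% of all peaks, and the replicate 2 list overlapped 307 (65.0%), beside 69.4%. Both replicate lists overlapped 151 members (32.0%, interval 27.8 to 36.4), beside 40.5% of all peaks, 43.4% of promoter peaks (interval 40.8 to 46.1) and 34.4% of intergenic peaks (interval 29.1 to 40.1). The members' share was thus close to that of the intergenic peaks and below that of promoter and near intronic peaks (46.1%), with intervals that do not overlap the latter pair. These intervals cover counting error over peaks only. The replicate 2 list was the longer one, with 1988 peaks on the arms against 1281, and 156 members were in the replicate 2 list alone while 30 were in the replicate 1 list alone.

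**Figure D1:**
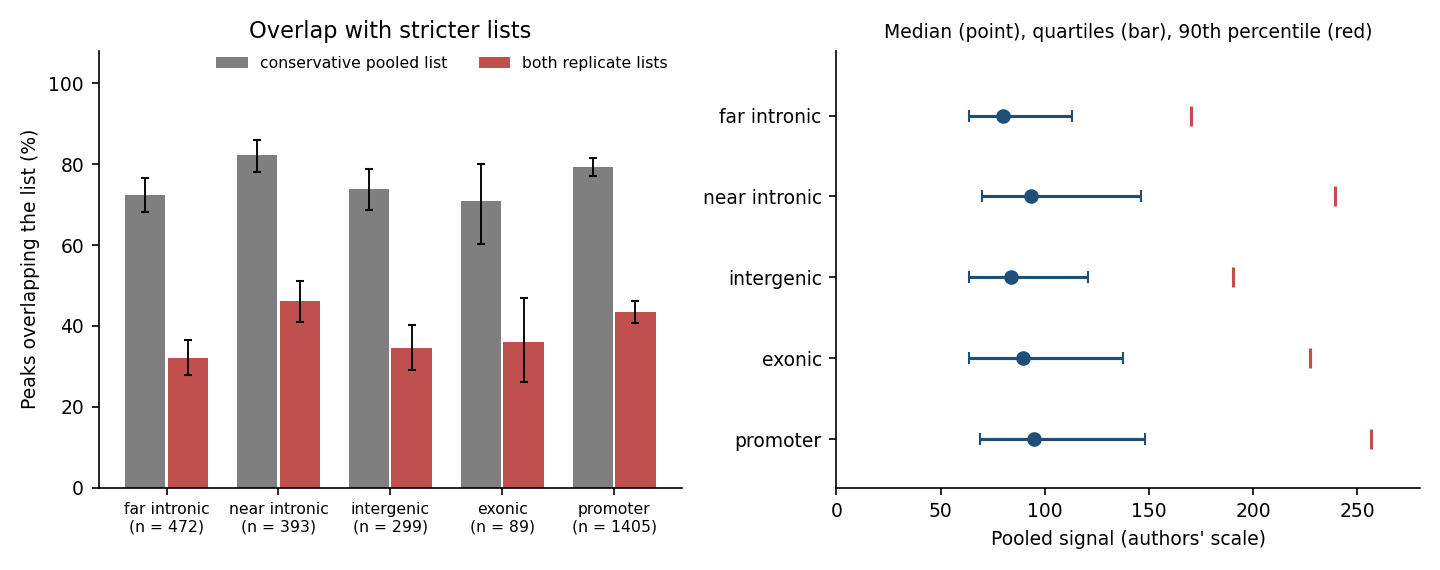
Left, the share of peaks of each location class (horizontal axis, with the number of peaks) that overlap the conservative pooled list (grey) or both replicate lists (red), in percent with exact 95% intervals. Right, the pooled signal of each class on the authors' scale, as median, quartiles and 90th percentile. Far intronic peaks reach 72.5% and 32.0% in the 2 lists and have the lowest of the 5 medians, 80.0.

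Agreement between the lists went with signal. Of the 118 strongest members (signals of 114.8 and above) 118 were in the conservative list and 110 in both replicate lists, and of the next 118 (80.2 to 112.7) 111 and 38 were. Of the 118 members with signals of 63.4 to 79.8, 80 were in the conservative list and 0 in both replicate lists, which allows a share of up to 2.54% when 3 peaks are taken as the limit of a count of 0. Of the 118 weakest, 33 and 3 were. So the members found in both replicate lists were mostly those with high pooled signal. The lists and the pooled signal were made from the same libraries, so part of this relation follows from how they were made. The weakest members counted in both include calls of 7.24 in sbb and 11.6 in mew. Each of these overlapped a stronger neighbour that was matched to the same replicate peaks.

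In the relaxed lists, which hold many weak peaks, 451 of the 472 members had a match in both replicates. The median signal there was 39.7 in replicate 1 and 44.6 in replicate 2, and 282 of the 451 had the higher value in replicate 2. The median log2 ratio of replicate 2 to replicate 1 was 0.14 with an SD of 0.61 over members, beside 0.16 with an SD of 0.63 over all 2505 peaks with both values. Across the members, which share libraries and are not independent replicates, the log2 signals of the replicates had a Pearson r of 0.66 and a Spearman rho of 0.54, given as a description. The same correlation over promoter peaks was 0.76 and 0.67.

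**Figure D2:**
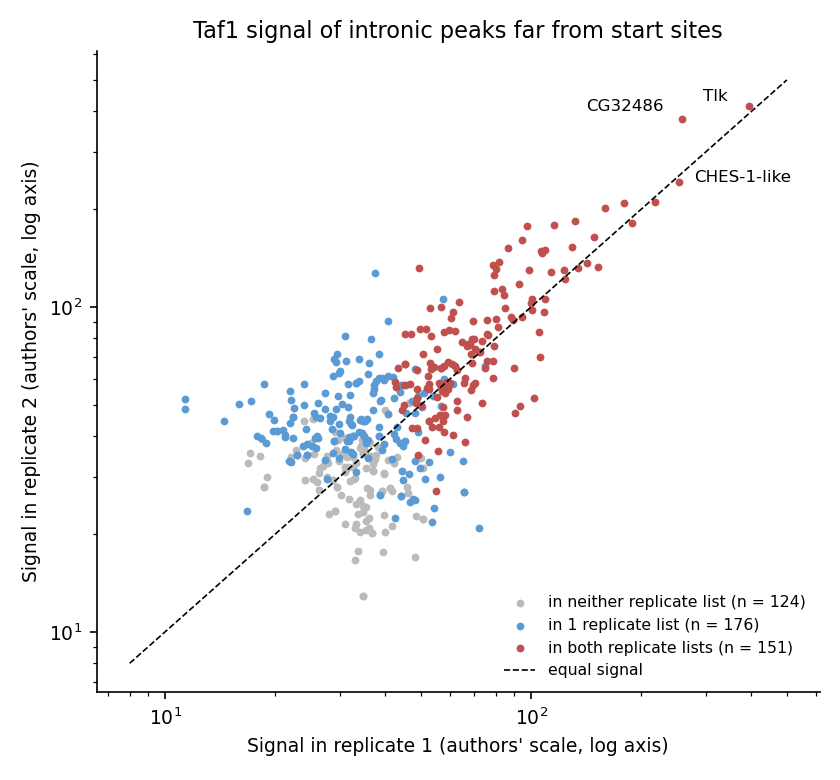
Signal of each far intronic peak in replicate 1 (horizontal) and replicate 2 (vertical), both on the authors' scale with log axes, for the 451 members with a match in both relaxed lists. Colours show whether the member is in both replicate lists (151), in 1 or in neither, and the 3 strongest members, Tlk, CG32486 and CHES-1-like, stand near the line of equal signal at the upper right.

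The members that differed most between the replicates had pooled signals from 12.7 to 171. The 5 highest ratios were at Fili (11.4 in replicate 1, 52.2 in replicate 2, log2 ratio 2.20), at Moe (11.3 and 48.4, log2 ratio 2.09), at CHES-1-like (37.4 and 127.7), at B4 (15.9 and 50.3) and at bi (18.6 and 57.7). Moe encodes moesin, which links membrane to actin, and bi is the T-box gene optomotor-blind. The 5 lowest were at Pdp1, a bZIP factor of the circadian clock (71.9 in replicate 1, 20.9 in replicate 2, log2 ratio -1.78), at Men, the malic enzyme gene (48.3 and 17.0), at Snoo (53.7 and 21.8) and at 2 neighbouring peaks in Msp300 that both matched the same replicate peaks (34.7 and 12.9). Each of the 5 high members was in the replicate 2 list and not in the replicate 1 list, and none of the 10 was in both.

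At the other end of the range, 25 members had pooled signals under 20, with none between 19.6 and 36.2. All 25 overlapped a stronger peak of the same pooled list, and 12 were in the conservative list. An example is a member in sbb with a pooled signal of 7.24 whose interval overlapped a neighbour of 112, both matched to 1 replicate peak of 45.3 in replicate 1 and 66.9 in replicate 2. The weakest members lay in kirre (2.14), CG9743 (2.28), ph-p (2.59), rdgB (3.45) and Msp300 (4.16). Peaks under 20 made up 5.30% of the members, 3.49% of promoter peaks and 3.95% of all peaks.

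The distance from the nearest protein-coding TSS had a median of 5260 bp over the members, and 117 of them lay more than 10000 bp away. The farthest was in luna, a KLF-family transcription factor gene on arm 2R, 53964 bp from a TSS, with signals of 29.2 in replicate 1, 41.3 in replicate 2 and 71.2 pooled. A member in hth, which encodes the homeodomain cofactor Homothorax, lay 49836 bp away with 35.5, 39.1 and 74.2. A member in mamo, a zinc-finger gene needed in the germline, lay 42305 bp away with 57.3, 106.0 and 161. Of the 5 farthest members, which also include ones in Snoo and again in luna, mamo had the highest signal, and all 5 were in the conservative list.

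Relative to the sequence available, members thinned out with distance. Introns more than 2000 bp from a TSS covered 39523273 bp in all, and the members came to 11.9 per Mb of it. The density was 21.6 per Mb between 2000 and 3000 bp from a TSS (99 members), 18.2 between 3000 and 5000 bp (122), 13.6 between 5000 and 10000 bp (134), 9.25 between 10000 and 20000 bp (75) and 4.09 beyond 20000 bp (42). The signal did not follow the same order: the median was 75.5 in the nearest of these ranges, 87.1 in the next, 82.5, 72.0 and then 74.1 in the farthest.

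By chromosome arm, X held 128 of the members, 27.1% (interval 23.2 to 31.4), and 18.0% of the far intron sequence, a density of 18.0 per Mb. The density was 13.2 per Mb on 2L, 12.2 on 2R, 11.7 on 3L and 8.58 on 3R. The same arm held 15.4% of promoter peaks (interval 13.5 to 17.4), 15.4% of intergenic peaks, 23.4% of near intronic peaks and 18.8% of all peaks. The signal of the members on X (median 80.9) was close to that on the other arms (79.1), and 75.8% on X were in the conservative list beside 71.2% elsewhere. When far intronic peaks were taken from a replicate's own list in place of the pooled one, X held 31.3% of the 339 in the replicate 2 list and 27.0% of the 185 in the replicate 1 list. Arms 4 and Y held 0 members, which allows a share of up to 0.636% of the members each when 3 peaks are taken as the limit of a count of 0 (exact upper bound 0.778%), and held 0.784% and 2.35% of the far intron sequence.

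**Figure D3:**
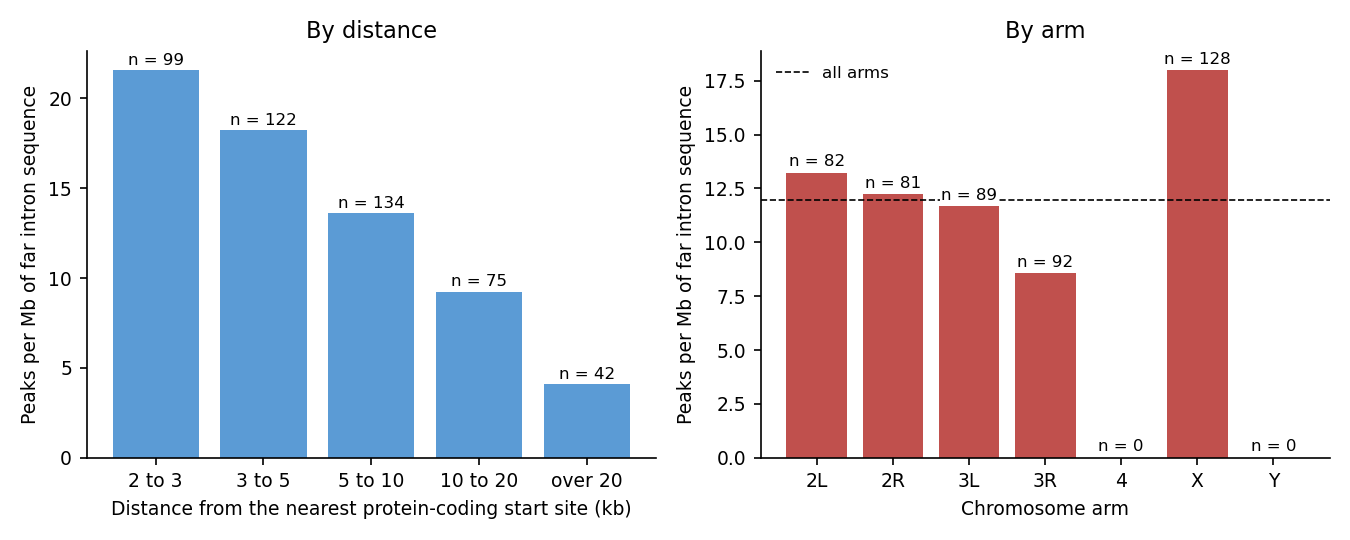
Far intronic Taf1 peaks per Mb of intron sequence more than 2000 bp from a protein-coding start site, by distance from that site (left, kb) and by chromosome arm (right; the dashed line is the density over all arms, 11.9 per Mb). Numbers over the bars count peaks. The density falls from 21.6 to 4.09 per Mb with distance and is highest on X, 18.0 per Mb.

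Within their genes, 277 of the 472 summits (58.7%, interval 54.1 to 63.2) lay in the first intron of at least 1 transcript. The share of first introns in the far intron sequence was not measured, so the 58.7% does not show a preference for them. The median intron was 11979 bp long, and 26 summits lay within 500 bp of an exon of the host. The nearest TSS belonged to the host gene itself for 343 members (72.7%). For the others a TSS of another gene was nearer, as for CG32486, where that of CG16753 lay 5705 bp away and the host's own lay 10055 bp away. A summit inside an intron therefore does not assign the peak to the host gene.

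Starts of noncoding RNA genes lay within 500 bp of 13 members (2.75%, interval 1.47 to 4.66), beside 4.97% of all peaks and 9.36% of intergenic peaks. Within 250 bp the share of members was 1.06%, and at a stricter irreproducible discovery rate (global IDR of 0.001 or less) it was 4.51% within 500 bp. Besides the osa member, the strongest were in mbl (255 pooled, 415 bp from lncRNA:CR45997) and a pair in beat-Ib, an immunoglobulin-superfamily gene of the beaten path family. The beat-Ib pair had pooled signals of 221 and 203 and lay 386 bp from lncRNA:CR44867 and 390 bp from lncRNA:CR44868. The closest lay in puc, which encodes the phosphatase of the JNK pathway, 95 bp from lncRNA:CR44331, with 50.2 in replicate 1 and 49.3 in replicate 2. The others among the 10 strongest lay in Tis11, CG14434, Dif, egr and dlp, where Dif is an NF-kappaB factor, egr the TNF ligand eiger and dlp a glypican. The egr member was 457 bp from a snoRNA gene, snoRNA:Or-CD13. Few members thus lay beside an annotated noncoding start.

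The 472 members fell in 304 host genes, 7.01% of the 4339 protein-coding genes that have any intron sequence this far from a TSS. A member inside 2 or more protein-coding genes (11 members) was counted for the shortest of them only. The number of hosts was 145 for the far intronic peaks of the replicate 1 list, without replicate 2. Of the 304 hosts, 206 held 1 member, 61 held 2 and 37 held 3 or more, and those 37 held 144 members. Hosts were long genes: the median of eligible intron sequence was 18590 bp in hosts and 1117 bp in the other eligible genes. The share of genes that host a member rose from 0.296% where eligible sequence was up to 2000 bp to 33.8% where it was over 50000 bp. For 83 hosts (27.3%) a pooled summit also stood within 500 bp of a TSS of their own, beside 644 of the 4035 eligible genes without a member (15.96%). In genes with more than 50000 bp of eligible sequence the shares were 24.1% and 10.4%, and in those with 2000 to 5000 bp they were 28.6% and 15.1%. Most hosts, Tlk and Raf among them, thus had no promoter summit in the pooled list.

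The host with most members was sbb, on arm 2R, which encodes the corepressor Scribbler (Brakeless). Its 10 members had pooled signals between 7.24 and 244, and 9 of them were in the conservative list. The strongest, 18.8 kb from the 5′ end of the gene, had 124.1 in replicate 1 and 121.6 in replicate 2. Hr4, a nuclear receptor gene of the ecdysone response on X, held 6 members, from 62.6 to 153 pooled. CG1677 held 6, of which 3 lay 70.8 to 71.5 kb and 3 lay 106 to 112 kb from its 5′ end. CHES-1-like held 5 in a gene of 27.0 kb, all of them in the conservative list and the weakest at 102.

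Raf held 5 members, of which those 2.25 and 5.25 kb from the 5′ end were the strong ones, with 115.3 and 81.7 in replicate 1 and 179 and 137.4 in replicate 2. Snoo, a cofactor of Dpp signalling, held 5 between 57.7 and 126 pooled. CG3764 and mew also held 5 each, where mew encodes the alpha PS1 integrin subunit. The 5 members in kirre, an immunoglobulin-superfamily gene of myoblast fusion, ranged from 2.14 to 58.3, and none was in the conservative list. The gene apt held 4, one of 279 and the others between 59.0 and 87.0.

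**Figure D4:**
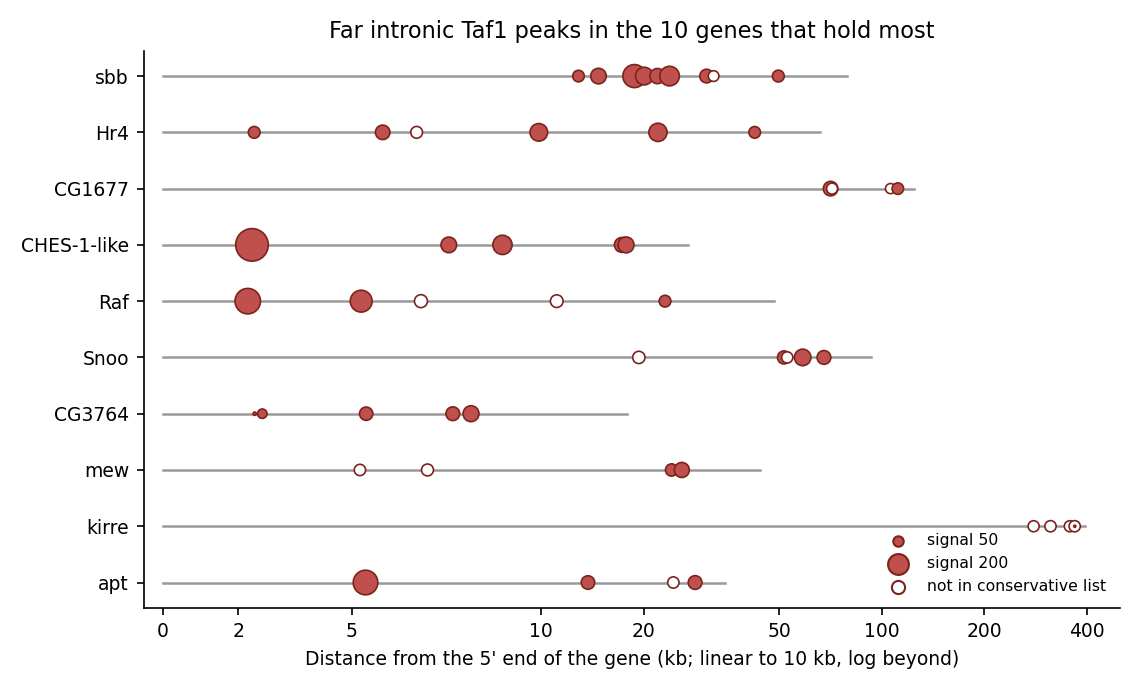
Positions of far intronic Taf1 peaks in the 10 host genes with most members, as distance from the 5′ end of the gene in kb (linear to 10 kb, log beyond). Grey lines span the gene, the area of a circle grows with the pooled signal, and open circles are not in the conservative list. CHES-1-like and Raf carry their strongest peak closest to the 5′ end, while the strongest in sbb lies 18.8 kb into the gene and all kirre peaks are open.

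Many members lay near each other. Another member lay within 1000 bp for 96 of the 472 (20.3%), in 45 clusters of up to 4 summits, and counting each cluster once left 421 sites. The intervals of 49 members overlapped that of another member, so many of these neighbours are adjoining calls. In Spn, 3 members within 1 cluster had pooled signals of 98.7, 74.8 and 71.9, each with its own match in the replicates. B4 held the cluster of 4 (69.8, 5.34, 109 and 65.1), in which the peak of 5.34 overlapped its neighbour of 69.8.

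By function, the 8 gene lists drawn up for the embryo took in 84 of the 304 hosts, and 220 were in none. The lists do not hold every gene of a class, so their counts, densities and rankings describe the listed genes only. Nak, Raf, Btk, Gug, simj and Tis11, named above among the strongest members, were in none of them. The share of eligible genes that hosted a member is set beside 7.01% over all eligible genes, and the density per Mb of eligible sequence beside 11.5 when sequence shared by overlapping genes is counted for each. Neither measure is free of gene length: the density was 24.7 per Mb over genes with 2000 to 5000 bp of eligible sequence, 13.3 with 20000 to 50000 bp and 5.58 beyond that. The mean eligible sequence was 9.42 kb per gene over all eligible genes and ran from 5.35 kb in the chromatin list to 40.6 kb in the neuronal list.

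In the list of developmental signalling pathways, 15 of 87 eligible genes were hosts (17.2%), with 31 members at 24.99 per Mb. The strongest were aos (252 pooled), mam (188.5), a Notch coactivator, aop (167), the ETS repressor Yan, and fz (150.3), the Frizzled receptor. The signals in the replicates were 84.7 and 99.0 at mam, 63.5 and 104 at aop and 73.5 and 78.4 at fz. Each of the 3 was thus higher in replicate 2, by the least at fz.

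In the list of kinases, phosphatases and small GTPase regulators, 13 of 58 eligible genes were hosts (22.4%) with 24 members at 26.2 per Mb. The strongest within it were Tlk, mnb, msn (162), a JNK pathway kinase, and Pde11 (149), a cyclic nucleotide phosphodiesterase. It did not hold the kinase genes Nak (317), Raf (299) and Btk (289). It did count cpo, which encodes an RNA-binding protein, held 2 members and was also in the RNA-binding list. It also counted puc, with 3 members, which was in the signalling list too. Of chromatin, Polycomb and trithorax factors, 7 of 53 were hosts (13.2%) with 9 members at 31.7 per Mb. Within this list, after osa came tara (140.5), Psc (99.6), a subunit of the Polycomb repressive complex PRC1, and trx (94.1), the trithorax histone methyltransferase. These counts leave out 7 far intronic peaks in trx, tara and Kdm2 that reached the same threshold in the pooled ranked list but were not in the list used here, 1 of which, in trx, had a pooled signal of 416, above osa. With them the list had 16 members at 56.4 per Mb. Gug (260) and simj (257), named above as transcription and chromatin genes, were not in it. Psc had 49.99 in replicate 1 and 49.4 in replicate 2, and the trx member in the list had 33.9 and 59.2.

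Of genes of the ecdysone response and nuclear receptors, 7 of 30 were hosts (23.3%) with 14 members at 21.8 per Mb. Within this list, after Hr4 came EcR (128), the ecdysone receptor, tai (84.0), its coactivator, and gce (79.8), a juvenile hormone receptor. The stronger member of 364 in nested genes that include Hr3 was counted for CG46321, the shortest of them, and not in this list. Of muscle, cytoskeleton and cell adhesion genes, 19 of 70 were hosts (27.1%) with 33 members at 23.4 per Mb, led by scrib (146), a cell polarity gene, Zasp52 (128), a Z-disc gene, aPKC (123) and spir (117), an actin nucleator. Only 16 of these 33 members (48.5%) were in the conservative list.

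The remaining lists had lower densities. Patterning and homeobox transcription factors had 5 hosts of 61 eligible genes (8.20%) and 6.83 members per Mb, with hth (157), ct (103.2), grh (96.3) and bi (80.6) as the strongest. Neuronal adhesion, guidance and synapse genes had 13 hosts of 78 (16.7%) and 4.74 members per Mb, led by beat-Ib (221), side (152), Shab (89.7), a potassium channel gene, and NetA (75.8), a netrin. RNA-binding and translational control genes had 7 hosts of 42 (16.7%) and 5.83 members per Mb, led by mbl (255), how (105), brat (103) and shep (96.6). Tis11 (279), named above as an RNA-binding gene, was not in this list. The mean eligible sequence per gene was 16.8, 40.6 and 36.8 kb in these 3 lists, above the mean of all eligible genes, and the part of gene length in their densities was not tested.

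The DNA under the summits was rich in A and T. The median GC content of the windows of 100 bp on either side was 34.8% over the members, 34.3% over promoter peaks and 40.8% over the 185659 consecutive windows that tile the same far introns. The composition dipped at the summit: mean GC was 44.2% between 200 and 300 bp from it and 31.2% in the central 25 bp. The promoter peaks had nearly the same dip, from 43.0% to 32.2%.

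Motifs of known factors were searched on both strands, and a match describes letters, not binding. The sequence GAGAG of GAGA factor was in 105 windows (22.2%, interval 18.6 to 26.3), beside 21.5% of the far intron windows and 21.3% of promoter peaks. Of far intron windows whose GC content lay between the members' quartiles, 18.3% held it, just below the members' interval. The TATA box TATAAA was in 36.7% of members, 38.9% of promoter peaks, 23.5% of far intron windows and 31.8% of those windows whose GC content lay between the members' quartiles. The start of the initiator, TCAGT, was in 37.9%, beside 31.1% of promoter peaks and 28.7% of far intron windows. It was in 43.4% of all protein-coding promoter windows, more than in the members. TCAGT also overlaps the word CAGTG: the joined TCAGTG was in 19.1% of members and 8.18% of far intron windows. The part of CAGTG in the share with TCAGT was not tested.

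Leaving aside the E-box given last, 4 of the elements known from housekeeping promoters were less frequent in the members than in promoter peaks, and 1 was not. The DNA replication-related element TATCGATA was in 1 of 472 members (0.212%), beside 6.98% of promoter peaks and 0.38% of far intron windows. The core of Ohler motif 7, CANCNCTA, was in 4.87%, beside 14.9% of promoter peaks and 4.47% of far intron windows. The core of Ohler motif 1, GGTCACA, was in 1.06% beside 3.63% and 1.33%. The BEAF-32 core CGATA, which TATCGATA contains, was in 20.8%, beside 35.1% of promoter peaks and 19.5% of far intron windows. For each of these 4 the members stood close to the introns around them. The core of Ohler motif 6, GTATNTTT, was in 10.2% of members (interval 7.59 to 13.3), beside 10.9% of promoter peaks and 6.92% of far intron windows. It was in 9.07% of far intron windows within the members' GC range, inside that interval. The E-box of Ohler motif 5, CAGCTG, was in 5.08% of members (interval 3.28 to 7.47), beside 9.32% of promoter peaks and 7.29% of far intron windows. It was in 4.65% of far intron windows within the members' GC range, so both intron shares lay inside that interval.

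Sites of sequence-specific activators are also set beside the far intron windows. The AP-1 site TGANTCA was in 6.36% of members (interval 4.33 to 8.95), beside 4.14% of far intron windows. Within the members' GC range 4.70% of those windows held it. It was in 11.0% of the 118 strongest members, 4.24% and 7.63% of the sets between, and 2.54% of the 118 weakest. Members with it had a median pooled signal of 102 and those without it 79.1. The Zelda site CAGGTAG was in 1.06% of members beside 0.86% of far intron windows. The Twist E-box CATATG was in 7.20% beside 6.06%, and the Grainy head site AACNGGTT in 1.06% beside 1.94%. The Pho core GCCAT was in 27.1% of members (interval 23.2 to 31.4), below the 36.3% of far intron windows. It was in 30.7% of those within the members' GC range, inside that interval. In 40 members (8.47%) none of the 15 motifs was found.

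A count of every 6-base word, made without choosing words beforehand, put ACAGTG (with its reverse complement CACTGT) at the head of those more frequent in the members. It was in 117 windows (24.8%), beside 7.20% of far intron windows and 18.9% of promoter peaks. The 5-base word within it, CAGTG, was then chosen, after these values were seen. It was in 261 members (55.3%, interval 50.7 to 59.8), in 27.7% of far intron windows and in 24.2% of those within the members' GC range. Other peak classes held it too: 59.6% of exonic peaks, 52.8% of intergenic peaks, 49.6% of near intronic peaks and 43.0% of promoter peaks, beside 36.9% of all protein-coding promoter windows. Since the word was chosen from these same windows, the shares in the members are a description.

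The share with CAGTG hardly differed between arms, from 54.3% on 2R to 56.5% on 3R. It was 61.0% in the 118 strongest members and 46.6% in the 118 weakest, with intervals of 51.6 to 69.9 and 37.4 to 56.0 that overlap. Members with the word had a median pooled signal of 84.7 and those without it 74.9.

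The copies were fewer at the summit than on either side of it. In the members there were 16.5 copies per 100 peaks in the 25 bp bin centred 88 bp to the left of the summit and 13.3 in the bin centred 87 bp to the right, against 3.18 and 5.08 in the bins next to the summit. Between 200 and 300 bp away the mean was 4.34 per bin. Intergenic peaks had 11.3 per bin between 51 and 100 bp from the summit and 4.68 in the central 25 bp, and promoter peaks had 9.40 and 3.42. In the windows printed above, the copies in osa, Dys and Nak likewise stand away from the summit, and the copy in Tlk stands nearer to it.

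A second word was arranged by strand. On the plus strand, TACAC occurred 106 times within 100 bp to the left of the members' summits and 33 times to the right, and its reverse complement GTGTA occurred 49 times to the left and 91 times to the right. The same arrangement was seen in intergenic peaks, with 65 and 33 for TACAC and 31 and 58 for GTGTA, and in near intronic peaks, with 77 and 42 and 45 and 70. In promoter peaks the counts were closer, 162 and 121 for TACAC and 139 and 179 for GTGTA over 1405 windows. For CAGTG itself there was no such side in the members, with 91 copies to the left and 95 to the right. TACAC was likewise chosen after the 6-base counts were seen.

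**Figure D5:**
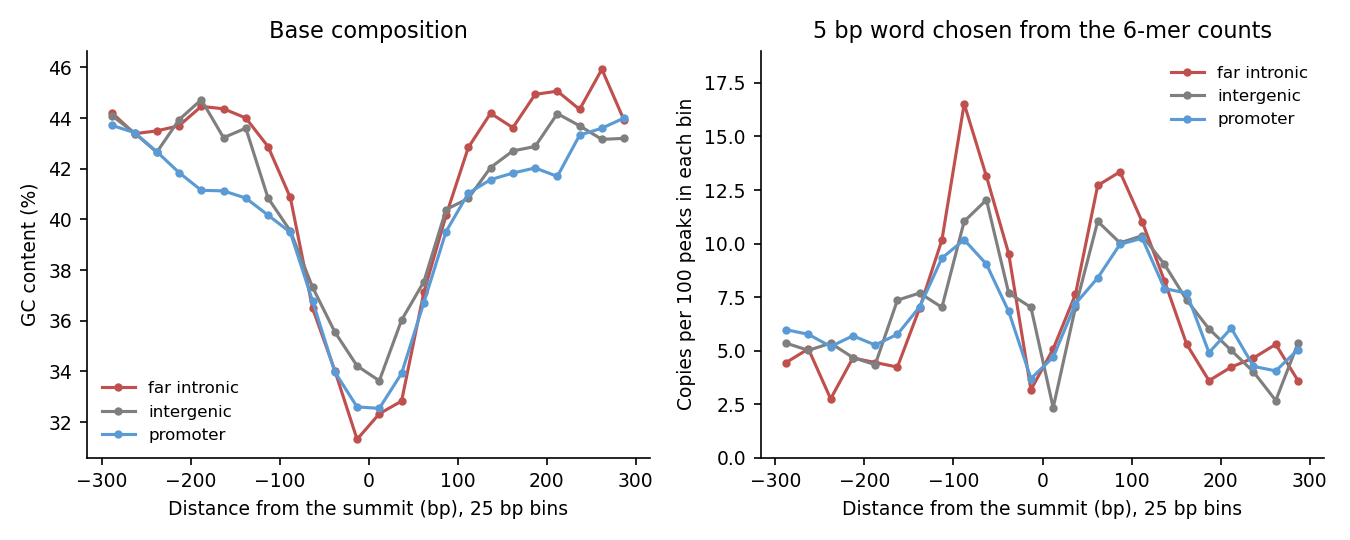
Mean GC content (left, percent) and copies of the 5-base word CAGTG or its reverse complement per 100 peaks (right) in 25 bp bins by distance from the summit, for far intronic, intergenic and promoter peaks. GC content of far intronic peaks falls to 31.3% beside the summit, and the word peaks on both flanks, at 16.5 and 13.3 copies per 100 peaks.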

How the data were processed

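Peaks of 2 embryo ChIP-seq libraries were on dm6, per the labels. Which aligner and caller were used is not given in the sources used here. The authors deposited ranked and thresholded lists, made with the irreproducible discovery rate (IDR), for each replicate and for the pooled reads, and the pooled thresholded lists are a conservative one and a larger one of 2665 peaks, which gave the peaks described. The signal of a peak is the deposited value on an unstated scale. The deposited −log10 of the global IDR, capped at 5, was used for the stricter threshold. No read counts are given, so depth is unknown, and intervals cover counting error over peaks only. The pooled ranked lists hold 4 columns of per-sample signal that name no replicate and were not used.

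Peaks off the arms (7) were left out. Summits were placed on Ensembl release 115 genes of the same assembly, with exons of all annotated genes, transposable elements included, counting as exons. Overlap meant at least 1 bp. The replicate signal of a member is that of the strongest relaxed peak overlapping it. Sequence came from the RefSeq release 6 genome, matched on both strands in windows of 100 bp on either side of the summit, beside all windows that tile introns more than 2000 bp from a TSS. Intervals are exact Clopper-Pearson 95% intervals. The design has 1 group and the members were described without tests, so no p-values are given. Classification and motif search were tested on simulated data. Python 3.11.15 was used with numpy 2.4.6, pandas 2.3.3, scipy 1.17.1 and matplotlib 3.10.9.

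The members, the gene lists and the 15 motifs were chosen with earlier results of these data known. Genes were named by rule: the 20 strongest members, the 5 farthest from a TSS, the 10 hosts with most members, the 5 highest and 5 lowest replicate ratios, up to 4 per list, the 10 strongest near noncoding starts and the 3 on either side of the distance limit. The weakest members, the clusters, and the words found from the count of 6-base words were chosen after their values were seen. Alternatives were other distances, all TSSs, the conservative list, each replicate alone, a stricter IDR, other overlaps and windows, and, chosen after seeing the data, transposable element exons left out, 1 member per cluster, overlapped weaker peaks left out, repeat-masked members left out, ranked peaks outside the list added to the gene lists, and GC-limited background windows.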

Additional observations from a re-analysis of the deposited data

Results flagged for a closer look

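Outside the list described above, 16 far intronic peaks reached the global IDR threshold of 0.01 in the pooled ranked list and were not in the pooled thresholded list. They drew attention as a signal in data that the comparisons did not use. They were among 87 such peaks of all classes. The strongest lay in trx, the trithorax gene, with signals of 186 in replicate 1, 235 in replicate 2 and 416 pooled, and in tara, with 157, 207 and 366. A further peak in ush, a GATA cofactor gene, had 115.4, 105.5 and 221. Of the 16, 4 lay in tara and 3 in crp. The reason for their absence from the thresholded list is not given in the sources used here.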

How the results depend on the processing

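The number of far intronic peaks was 251 at more than 5000 bp from a TSS, 266 at a global IDR of 0.001 or less, and between 185 and 339 with 1 replicate left out, the lower value without replicate 2; it stayed within 1.5 times of 472 under the other alternatives, up to 657 at more than 1000 bp. The share in the conservative list was 66.9% beyond 5000 bp, 95.5% at the stricter IDR, and 75.8% to 92.4% with 1 replicate left out. The share in both replicate lists was 41.6% in the conservative list, 56.8% at the stricter IDR and 25.8% when at least 50% of both peaks had to overlap. The median signal ran from 77.2 to 107.9 and the median log2 ratio from 0.09 to 0.19. The number of host genes was 173 beyond 5000 bp, 195 at the stricter IDR and 145 to 252 with 1 replicate left out. The share in a first intron was 66.7% at more than 1000 bp, 49.8% beyond 5000 bp, and 57.8% to 65.4% with 1 replicate left out. The share within 500 bp of a noncoding start ran from 2.44% to 4.51% and was 1.06% at 250 bp, and 0 by construction with the TSSs of all genes. The share on X ran from 25.1% to 31.3%. The share with CAGTG depended on the window, 21.6% at 50 bp and 69.3% at 150 bp on either side, and was 61.7% without replicate 1. The share with GAGAG was likewise 9.75% and 39.4%. The cause of these shifts was not tested beyond the settings' own construction. No paired analysis was possible because there is 1 group. Depth limits every absence: read counts are not given, and a site outside the lists was not shown to lack Taf1.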

Other observations

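Other 6-base words that were more frequent in the members than in far intron windows were GTGCAC (12.1% beside 4.11%), ACTGTA (19.1% beside 6.62%) and CTGTAC (12.3% beside 4.29%), each counted with its reverse complement. In promoter peaks these were at 6.19%, 13.7% and 6.69%. The words with the lowest ratio were CGTGGC (1.69% beside 6.57%), GAAGGA (2.33% beside 8.65%) and CAGGAG (1.69% beside 5.85%). They were chosen after all words had been counted, and the words overlap each other. Median GC was 34.8% in the members' windows and 40.8% in far intron windows. These words were not counted in windows limited to the members' GC range. The part of base composition in their shares was not tested.

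Members present in the relaxed list of 1 replicate only numbered 21. The strongest lay in Roc2, with 107 in replicate 1 and 193 pooled, and no overlapping relaxed peak in replicate 2.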
